A study of Mus musculus with 6 samples.

Results

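The genes examined here make prostaglandins, break them down or receive their signal, and they were read from microarrays of mouse colon tumors. They were chosen by gene symbol, with no measured value used: Ptgs1 and Ptgs2 (the cyclooxygenases), Ptges, Ptges2 and Ptges3 (the prostaglandin E synthases), Hpgd (the enzyme that inactivates prostaglandins) and Ptger1, Ptger2, Ptger3 and Ptger4 (the prostaglandin E receptors). Of these 10 genes, 9 had a probe set that carried their symbol alone, out of 19938 genes with such a set on the array, and each was read from its set with the highest mean over the 6 tumors. All 9 passed the filter on low signal, which 16784 genes passed in all. Ptgs1 was paired with no such set and was not analysed here.

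The 3 double knockout tumors came from the colon of mice with the genotype CDX2P-G19Cre;Apcflox/flox;Tgfbr2flox/flox, and the 3 Apc knockout tumors from mice with the genotype CDX2P-G19Cre;Apcflox/flox. The comparison was meant to find genes that depend on the TGF-β receptor Tgfbr2 once Apc is lost. All mice were 3 weeks old, the labels give their strain as C57BL/6J, and each tumor sample was cut out by laser microdissection and hybridized to its own Affymetrix Mouse Gene 1.0 ST array. Both groups carried the Apc deletion and the same Cre, which is driven by a human CDX2 promoter and becomes active at random in single cells of the colon epithelium, so that stromal and immune cells in a tumor kept both genes. Replicates are identified by number in the labels, and the methods do not state that each tumor came from a separate mouse. Values are log2 signals, on which a difference of 1 is a doubling, and differences are double knockout minus Apc knockout.

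Prostaglandins are lipid signals made from arachidonic acid. Phospholipases A2 free this fatty acid from membranes, cyclooxygenases turn it into a shared precursor, and synthases turn that precursor into prostaglandin E or its relatives, which leave the cell and act on nearby cells through G protein-coupled receptors. In the intestine prostaglandin E is made largely by stromal and myeloid cells that express Ptgs2, promotes the growth of Apc-mutant tumors in mice, and is removed by the product of Hpgd, an enzyme of differentiated colonocytes whose human counterpart is induced by TGF-β and is low in human colorectal cancer.

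The array medians lay between 7.68 and 7.80. Double knockout tumor 2 stood apart: its correlation with the other 5 tumors over all probe sets was 0.956 to 0.968, against 0.980 to 0.988 among those 5. A male pattern of sex-linked transcripts was seen in 2 of 3 double knockout tumors and 1 of 3 Apc knockout tumors. Tgfbr2 signal averaged 10.60 ± 0.34 in double knockout tumors and 11.27 ± 0.15 in Apc knockout tumors (SD, n = 3 each). Where its probes lie in relation to the floxed exons is not known, so this level is no check of the genotypes. All 8 colon epithelium markers, among them Epcam and Cdx2, passed the filter, and their mean signal was 12.10 to 12.25 in double knockout tumors, against 11.84 to 12.22 in Apc knockout tumors. Within this list Cdx2, a transcription factor of intestinal epithelium, was low in double knockout tumor 2, at 8.24 with the other 5 tumors between 10.08 and 11.18.

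None of the 9 measured prostaglandin genes differed between double knockout and Apc knockout tumors at an adjusted p under 0.05 in limma, and no probe set on the array did (0% of 19506 tested, of which 1092 had an unadjusted p under 0.05, and 998 by the methods' t-test). At an unadjusted p under 0.05, 0 of the 9 were higher in double knockout tumors, where 1.78% of all tested sets were, and 0 were lower, where 3.82% were. In 0 of the 9 genes did every double knockout tumor lie on the same side of every Apc knockout tumor, as happened in 12.2% of all sets. The mean signal was higher in double knockout tumors for 6 genes and lower for 3, and the median log2 fold change of the 9 genes was 0.06, beside 0.01 over all tested sets. Their adjusted p-values in limma were 0.824 to 0.963.

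The spread between single tumors was wide for 3 genes. Hpgd was highest in double knockout tumor 2 by a wide margin, Ptger3 was raised in the same tumor, and Ptgs2 was highest in Apc knockout tumor 2. The SD of Hpgd over the 6 tumors was larger than that of 99.3% of tested sets, that of Ptger3 larger than that of 97.2%, and that of Ptgs2 larger than that of 95.3%. The signal of each gene in each tumor is drawn in the plot of single tumors.

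**Figure D1:**
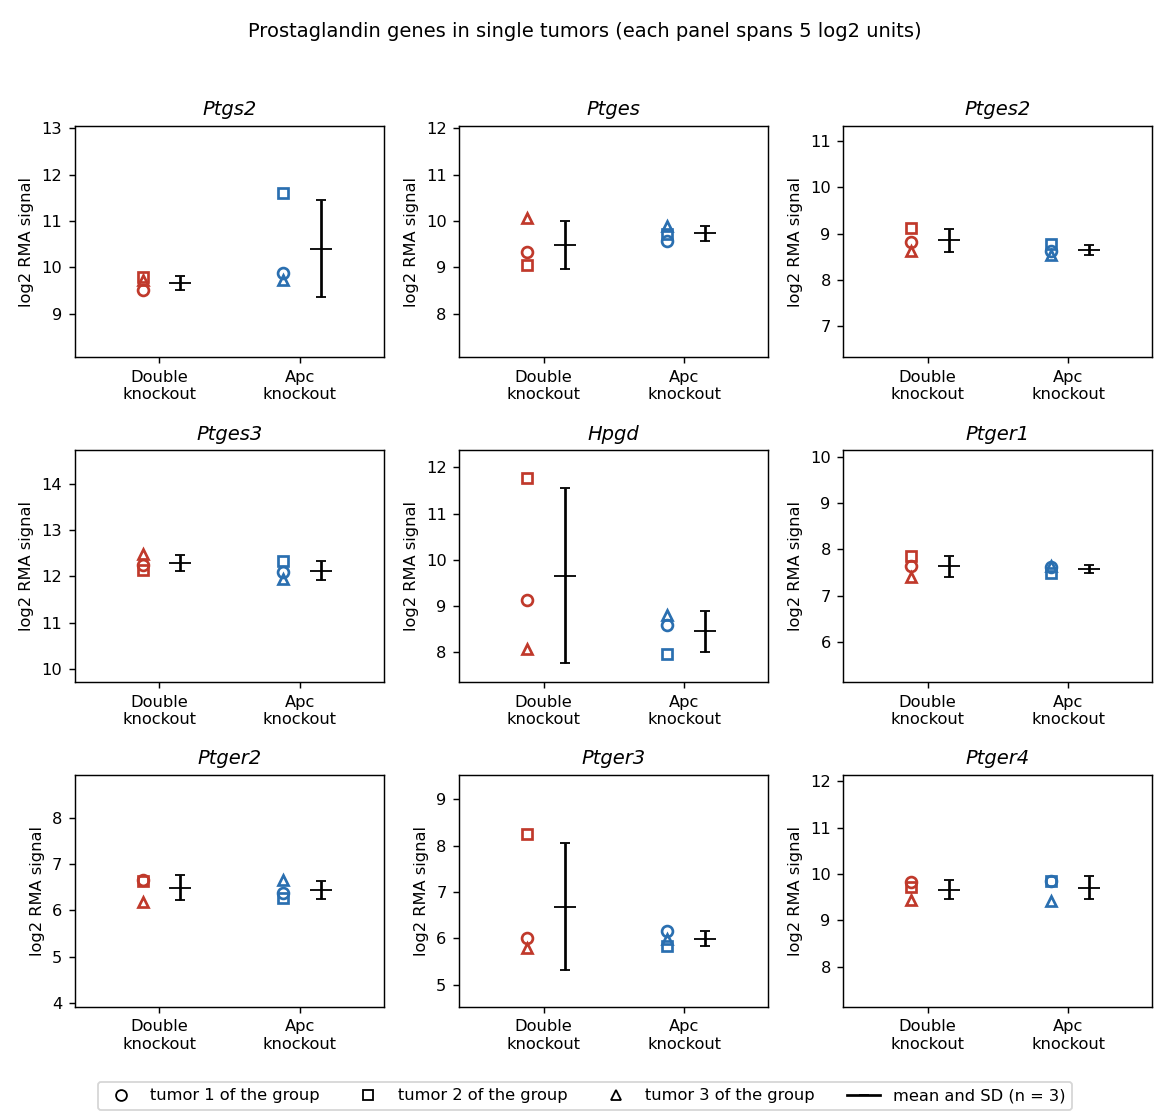
Log2 RMA signal (vertical axis, each panel spanning 5 log2 units) of the 9 measured prostaglandin genes in 3 double knockout tumors (red, left) and 3 Apc knockout tumors (blue, right), where symbols are single tumors and bars are the mean and SD. Hpgd reached 11.76 and Ptger3 8.26 in double knockout tumor 2, and Ptgs2 reached 11.61 in Apc knockout tumor 2, while the groups overlapped for all 9 genes.

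Promoter sequences are shown for Ptgs2 and Hpgd, the synthetic and the degrading enzyme with the widest spread between tumors. They come from RefSeq (GRCm38.p6) and run from 150 bases before the annotated transcription start to 30 bases from it, where the start is base 1. Ptgs2 is annotated at chr1:150100031-150108234 and Hpgd at chr8:56294552-56321046, so each window holds the sequence before the annotated gene and its first annotated bases. Capitals mark matches to short motifs searched on both strands.
Ptgs2, chr1:150099881-150100060, plus strand: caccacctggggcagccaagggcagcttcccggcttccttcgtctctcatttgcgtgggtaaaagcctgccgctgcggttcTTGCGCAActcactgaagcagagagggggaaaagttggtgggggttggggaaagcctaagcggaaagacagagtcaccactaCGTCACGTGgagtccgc
Hpgd, chr8:56294402-56294581, plus strand: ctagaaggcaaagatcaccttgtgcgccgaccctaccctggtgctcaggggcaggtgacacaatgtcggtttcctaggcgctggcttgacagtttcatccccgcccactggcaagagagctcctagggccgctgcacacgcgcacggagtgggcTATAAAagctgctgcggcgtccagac
The Ptgs2 window held the C/EBP palindrome TTGCGCAA at bases -69 to -62, a match that 60 of 32851 promoters of the same build hold within 300 bases around the start (0.183%). It also held a CRE core, TGACG, read from the other strand at bases 14 to 18 (20.8% of promoters), which shared 2 bases with the E-box CACGTG at bases 17 to 22 (7.15% of promoters). The Hpgd window held the TATA box letters TATAAA at bases 5 to 10, after the annotated start (13.6% of promoters). The TCF/LEF letters CTTTGA (16.0% of promoters), the AP-1 letters TGANTCA (7.81%) and the Smad palindrome GTCTAGAC (0.213%) were in none of the 300-base windows of the 9 genes of the set that RefSeq supplied, which include Ptgs1 and not Ptger1. These matches describe the letters only.

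Ptgs2 encodes the inducible cyclooxygenase, the enzyme blocked by aspirin-like drugs. Its log2 signal was 9.51, 9.79 and 9.72 in double knockout tumors 1, 2 and 3, against 9.87, 11.61 and 9.74 in Apc knockout tumors 1, 2 and 3. Apc knockout tumor 2 was 3.70-fold above the mean of the other 5 tumors, which lay between 9.51 and 9.87, and the groups overlapped. Ptgs2 averaged 9.67 ± 0.15 in double knockout tumors and 10.41 ± 1.05 in Apc knockout tumors (SD, n = 3 each). The log2 fold change was -0.73 (SE 0.50, 95% interval -1.95 to 0.48, limma adjusted p = 0.824), and a two-sided exact permutation test gave p = 0.2, where 3 tumors against 3 cannot go below 0.1. With Apc knockout tumor 2 left out the difference was -0.13. In RNA from microdissected tumor tissue, fewer cells of a type in the cut and less RNA per cell cannot be told apart.

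Since neutrophils and macrophages can express Ptgs2, their markers were read beside it. The mean signal of 10 of 10 neutrophil markers was 7.41 to 8.73 in double knockout tumors, against 8.67 to 9.65 in Apc knockout tumors. All 10 had lower means in double knockout tumors (median log2 fold change -1.28), though Csf3r (-0.016, SE 0.17) and Camp (-0.046, SE 0.12) hardly differed. In 1 of the 10 the groups did not overlap, beside 12.2% of all sets. An unadjusted limma p under 0.05 was found for 4 (3.82% of all tested sets were lower at that threshold) and an adjusted one for 0. The neutrophil mean was 9.50 in Apc knockout tumor 2, where Ptgs2 was highest, and 9.65 in Apc knockout tumor 1, where Ptgs2 was the second highest at 9.87. Ordered by Ptgs2 or by the neutrophil mean, the 6 tumors stood in the same order apart from this pair, although Ptgs2 spanned only 9.51 to 9.87 outside Apc knockout tumor 2. The mean of 11 of 11 macrophage markers was 9.04 to 9.69 in double knockout tumors, against 9.21 to 9.66 in Apc knockout tumors, and it was 9.21 in Apc knockout tumor 2. The part of these cells in the Ptgs2 signal was not tested.

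Among 3877 tested sets with a range of at least 1, those that varied most like Ptgs2 over the 6 tumors were Gkn3 (a gastrokine, Pearson r = 0.970), Csf3 (the growth factor of granulocytes, r = 0.970) and Dio2 (a deiodinase that activates thyroid hormone, r = 0.964). Gkn3 had a log2 signal of 5.91, 5.73 and 6.36 in double knockout tumors 1, 2 and 3, against 6.62, 8.84 and 6.05 in Apc knockout tumors 1, 2 and 3. Csf3 was at 6.73 to 6.94 in double knockout tumors, against 7.03, 8.12 and 7.10 in Apc knockout tumors 1, 2 and 3. The likeness rested on Apc knockout tumor 2: without it, r over the other 5 tumors was 0.48 for Gkn3, 0.36 for Csf3 and 0.33 for Dio2. These correlations only describe the genes picked by them, from 6 arrays normalized together.

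**Figure D2:**
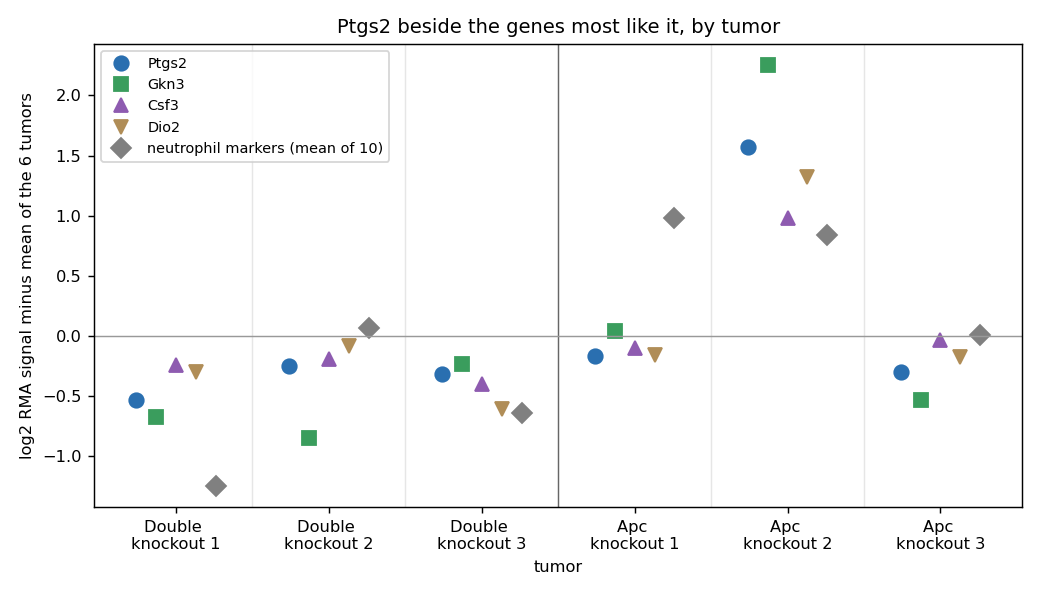
Log2 RMA signal minus the mean of the 6 tumors (vertical axis) of Ptgs2, of the 3 genes most like it and of the mean of 10 neutrophil markers, for 3 double knockout tumors (left) and 3 Apc knockout tumors (right), where symbols are single values. Ptgs2, Gkn3, Csf3 and Dio2 stood out in Apc knockout tumor 2, while the neutrophil mean was high in Apc knockout tumors 1 (9.65) and 2 (9.50).

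The 3 prostaglandin E synthases differed little between the groups. Ptges encodes the inducible microsomal synthase that is often expressed with Ptgs2. Its log2 signal was 9.33, 9.05 and 10.06 in double knockout tumors 1, 2 and 3, against 9.58, 9.72 and 9.89 in Apc knockout tumors 1, 2 and 3. Double knockout tumors 1 and 2 lay below all Apc knockout tumors and double knockout tumor 3 above them. Ptges averaged 9.48 ± 0.52 in double knockout tumors and 9.73 ± 0.16 in Apc knockout tumors (SD, n = 3 each), with a log2 fold change of -0.25 (SE 0.27, limma adjusted p = 0.849). Without double knockout tumor 3 it was -0.54, which had an unadjusted limma p of 0.0187 and an adjusted p of 0.564, and without double knockout tumor 2 it was -0.04. The tumor with the highest Ptgs2 signal, Apc knockout tumor 2, was not the highest in Ptges.

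Ptges2, a membrane-associated synthase, had a log2 signal of 8.83, 9.12 and 8.62 in double knockout tumors 1, 2 and 3, against 8.63, 8.77 and 8.54 in Apc knockout tumors 1, 2 and 3. Ptges2 overlapped between the groups, with a log2 fold change of 0.21 (SE 0.15, limma adjusted p = 0.827) that was 0.08 without double knockout tumor 2. Ptges3, the cytosolic synthase that also serves as a co-chaperone of steroid receptors, was at 12.23, 12.13 and 12.48 in double knockout tumors 1, 2 and 3, against 12.08, 12.34 and 11.95 in Apc knockout tumors 1, 2 and 3. Its log2 fold change was 0.16 (SE 0.15, limma adjusted p = 0.838). The other 2 probe sets of Ptges3 gave 0.05 (SE 0.18, mean signal 9.79) and 0.15 (SE 0.17, mean signal 11.49). RefSeq places Ptges3 on chromosome 10 and lists a pseudogene of it, Ptges3-ps, on chromosome 6. Which of the 3 probe sets reads the gene itself was not examined. The source of the Ptges3 signal is therefore uncertain, and the levels given may not be those of the gene itself.

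Hpgd encodes hydroxyprostaglandin dehydrogenase, which takes the first step in the breakdown of prostaglandin E. Its log2 signal was 9.13, 11.76 and 8.09 in double knockout tumors 1, 2 and 3, against 8.59, 7.97 and 8.80 in Apc knockout tumors 1, 2 and 3. Double knockout tumor 2 was 9.47-fold above the mean of the other 5 tumors, which lay between 7.97 and 9.13. Double knockout tumor 1 was higher than all Apc knockout tumors as well, and double knockout tumor 3 lay within their range. Hpgd averaged 9.66 ± 1.89 in double knockout tumors and 8.45 ± 0.43 in Apc knockout tumors (SD, n = 3 each). The log2 fold change was 1.20 (SE 0.91, 95% interval -1.0 to 3.41, limma adjusted p = 0.827), with p = 0.4 in the two-sided exact permutation test. It was 0.15 without double knockout tumor 2, 1.99 without double knockout tumor 3 (unadjusted limma p of 0.0483, adjusted p of 0.564) and 0.72 with sex as a covariate.

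Ptger3 encodes the receptor that lowers cyclic AMP, and in the gut it is found on smooth muscle and neurons. Its log2 signal was 6.01, 8.26 and 5.79 in double knockout tumors 1, 2 and 3, against 6.17, 5.83 and 5.98 in Apc knockout tumors 1, 2 and 3. Apart from double knockout tumor 2, all tumors were close to the limit of the filter (5.88) or below it, between 5.79 and 6.17, so that no fold over them is given. Ptger3 averaged 6.69 ± 1.37 in double knockout tumors and 5.99 ± 0.17 in Apc knockout tumors (SD, n = 3 each). The log2 fold change was 0.69 (SE 0.65, 95% interval -0.88 to 2.26, limma adjusted p = 0.838) and -0.093 without double knockout tumor 2.

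Markers of differentiated colonocytes and of smooth muscle were raised in double knockout tumor 2 too. The mean signal of 12 of 12 colonocyte markers was 10.42, 11.65 and 9.57 in double knockout tumors 1, 2 and 3, against 10.44, 9.74 and 10.28 in Apc knockout tumors 1, 2 and 3. The mean of 8 of 8 smooth muscle markers was 8.85, 10.59 and 8.15 in double knockout tumors 1, 2 and 3, against 8.84, 8.34 and 8.87 in Apc knockout tumors 1, 2 and 3. Of the colonocyte markers 9 were highest in double knockout tumor 2, as were 7 of the smooth muscle markers, while 28.5% of all tested sets were. The list did not move as a whole: 2 of the 12 colonocyte markers were lowest in that tumor, Slc9a3, a sodium-proton exchanger, at 8.27 with the others between 9.52 and 10.62, and Guca2b, uroguanylin, at 10.09 with the others between 10.26 and 10.86. Among the markers that were highest Slc26a3, a chloride exchanger of surface colonocytes, was at 12.35 in double knockout tumor 2 and Actg2, the smooth muscle gamma-actin, at 11.03. Both marker means and Hpgd were lowest in the same pair of tumors: tumor 3 of the double knockout group and tumor 2 of the Apc knockout group. The part of either cell type in the Hpgd and Ptger3 signals was not tested.

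The genes that varied most like Hpgd over the 6 tumors were Eln (elastin, r = 0.997), Spink1 (a secreted protease inhibitor, r = 0.996) and P2ry4 (a receptor for extracellular nucleotides, r = 0.995). Without double knockout tumor 2, r over the other 5 tumors was 0.973 for Eln, 0.959 for Spink1 and 0.956 for P2ry4. Eln, a matrix gene, was at 8.40, 9.56 and 7.88 in double knockout tumors 1, 2 and 3, against 8.26, 7.90 and 8.23 in Apc knockout tumors 1, 2 and 3. Spink1 was at 8.71, 12.12 and 7.04 in double knockout tumors 1, 2 and 3, against 8.04, 7.36 and 8.10 in Apc knockout tumors 1, 2 and 3. As with Ptgs2, the genes were picked by this measure, so that r is a description.

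**Figure D3:**
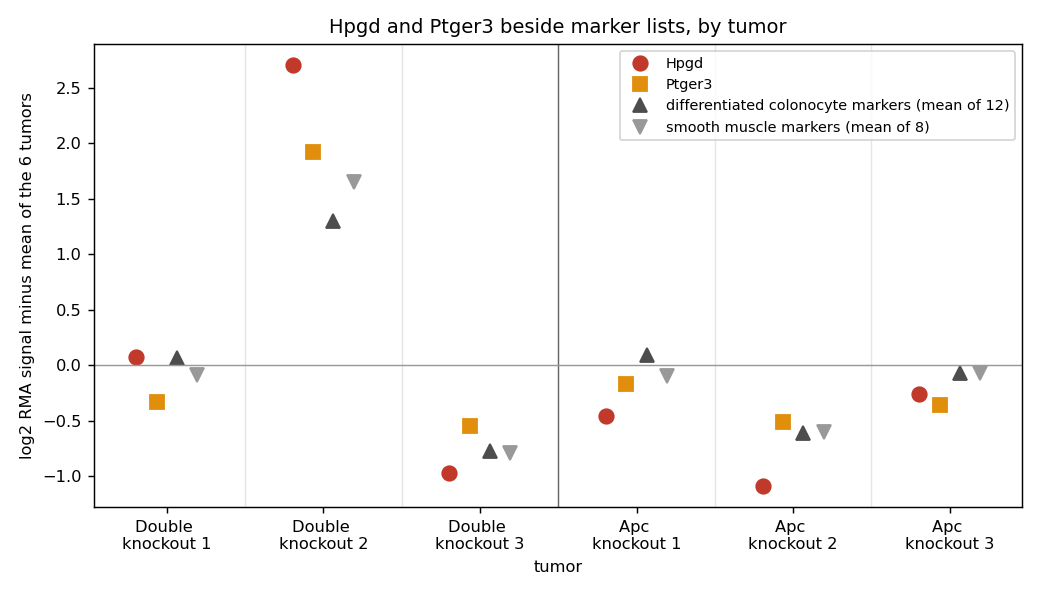
Log2 RMA signal minus the mean of the 6 tumors (vertical axis) of Hpgd, Ptger3, the mean of 12 differentiated colonocyte markers and the mean of 8 smooth muscle markers, for 3 double knockout tumors (left) and 3 Apc knockout tumors (right), where symbols are single values. All were highest in double knockout tumor 2, where Hpgd was at 11.76, Ptger3 at 8.26, the colonocyte mean at 11.65 and the smooth muscle mean at 10.59.

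The other 3 receptors showed small differences. Ptger4, the receptor that raises cyclic AMP in epithelial and immune cells of the colon, had a log2 signal of 9.83, 9.72 and 9.44 in double knockout tumors 1, 2 and 3, against 9.86, 9.85 and 9.42 in Apc knockout tumors 1, 2 and 3. Its log2 fold change was -0.04 (SE 0.17, 95% interval -0.46 to 0.37, limma adjusted p = 0.963), and tumor 3 was the lowest in both groups. Ptger2, which also raises cyclic AMP, was at 6.66, 6.63 and 6.18 in double knockout tumors 1, 2 and 3, against 6.38, 6.28 and 6.66 in Apc knockout tumors 1, 2 and 3.

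For Ptger2 the log2 fold change was 0.06 (SE 0.18, 95% interval -0.37 to 0.49, limma adjusted p = 0.954), and its signal was not far above the limit of the filter (5.88). Ptger1, which signals through calcium, was at 7.63, 7.86 and 7.40 in double knockout tumors 1, 2 and 3, against 7.62, 7.48 and 7.64 in Apc knockout tumors 1, 2 and 3. Its log2 fold change was 0.06 (SE 0.14, 95% interval -0.29 to 0.41, limma adjusted p = 0.937). The groups overlapped for each of the 3 receptors, and the sign of each difference turned when single tumors were left out. The intervals do not show that the receptors were equal in the groups: they bound the differences at less than 0.50 in either direction on the log2 scale.

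**Figure D4:**
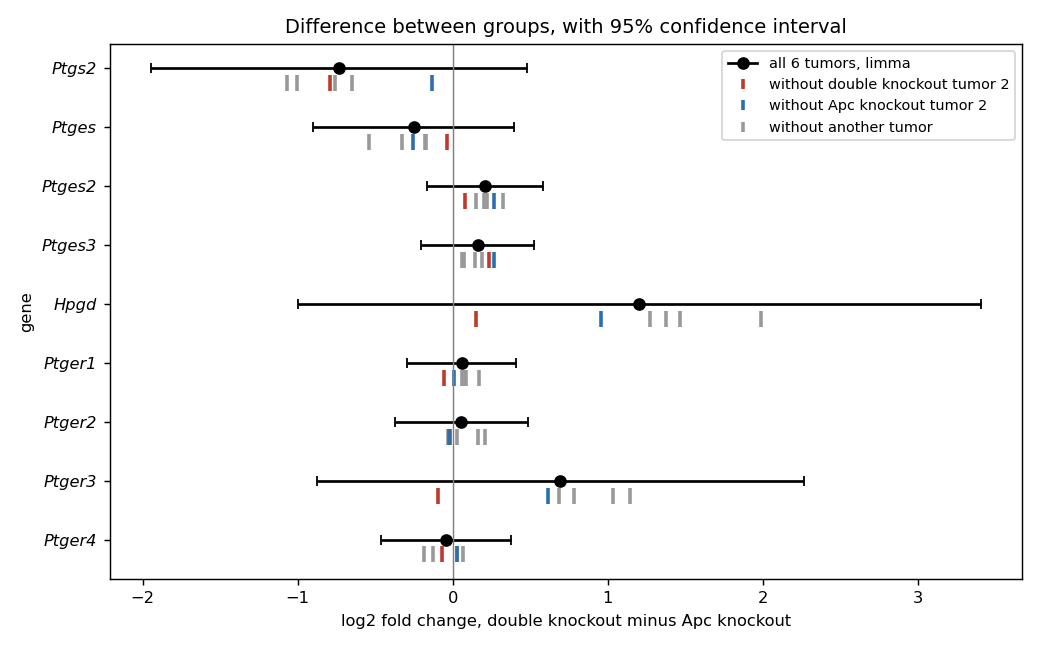
Log2 fold change, double knockout minus Apc knockout (horizontal axis), of the 9 measured prostaglandin genes with the 95% confidence interval from limma (points and bars), and below each the value with each tumor left out in turn (ticks). All 9 intervals cross 0; without double knockout tumor 2 (red ticks) Hpgd was at 0.15 and Ptger3 at -0.093, and without Apc knockout tumor 2 (blue ticks) Ptgs2 was at -0.13.

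Of 21 genes of the phospholipase A2 family, which includes but is not limited to enzymes that free arachidonic acid, 19 were measured. The mean was higher in double knockout tumors for 12 and lower for 7 (median log2 fold change 0.08). None had an adjusted p under 0.05 in limma. At an unadjusted p under 0.05, 1 was higher and 1 lower, beside 1.78% and 3.82% of all tested sets, and in 5 the groups did not overlap, beside 12.2% of all sets. Pla2g2f, a secreted phospholipase, was at 9.86, 9.99 and 9.97 in double knockout tumors 1, 2 and 3, against 10.93, 11.08 and 10.26 in Apc knockout tumors 1, 2 and 3. The difference, -0.81 (SE 0.22, limma adjusted p = 0.821), had an unadjusted limma p of 0.0103, which stayed under 0.05 with each tumor left out.

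Pla2g5, another secreted phospholipase, was at 9.65, 10.53 and 9.43 in double knockout tumors 1, 2 and 3, against 8.62, 8.95 and 9.31 in Apc knockout tumors 1, 2 and 3. Its difference of 0.91 (SE 0.33, limma adjusted p = 0.821) was 0.58 without double knockout tumor 2, and its unadjusted limma p of 0.0309 was 0.0993 without Apc knockout tumor 1 and 0.0741 without Apc knockout tumor 2. Pla2g2a, which had the highest mean signal of the list, is known in mice as a modifier of tumor number in Apc-mutant intestine. The C57BL/6 strain carries a disrupted copy. The methods name a strain only for the Tgfbr2 floxed line, which was crossed with the Apc floxed and Cre lines. Pla2g2a was not examined here for the copy each tumor carried. Its signal was 12.40, 10.85 and 12.32 in double knockout tumors 1, 2 and 3, against 12.96, 12.91 and 12.44 in Apc knockout tumors 1, 2 and 3, so that double knockout tumor 2 was the low one. The log2 fold change of Pla2g2a was -0.91 (SE 0.43, limma adjusted p = 0.821) and -0.41 without double knockout tumor 2. The other genes without overlap were Pla2g6, a calcium-independent phospholipase (-0.41, SE 0.23, and -0.15 without double knockout tumor 2), and Pla2g15, a lysosomal enzyme (-0.13, SE 0.10, and -0.085 without Apc knockout tumor 3).

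Synthases of the other prostanoids numbered 7, of which 6 were measured, with 4 higher and 2 lower (median log2 fold change 0.22). Ptgis, the prostacyclin synthase, was at 7.80, 7.78 and 7.86 in double knockout tumors 1, 2 and 3, against 7.47, 7.58 and 7.57 in Apc knockout tumors 1, 2 and 3. The groups did not overlap and replicates lay close together, yet the difference was small, 0.28 (SE 0.09, limma adjusted p = 0.821). Ptgis was the only 1 of the 6 genes without overlap, beside 12.2% of all sets. Its unadjusted limma p was 0.0237, and 0.0616 to 0.0869 without double knockout tumor 1, double knockout tumor 3 or Apc knockout tumor 1. Cbr1, a carbonyl reductase that can turn prostaglandin E into F, had the highest mean signal of the list, and its log2 fold change was 0.59 (SE 0.44) with all tumors and 0.07 without double knockout tumor 2.

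Prostaglandin transport and the later steps of breakdown were covered by 6 genes, all measured, with 3 higher, 3 lower and none past an unadjusted p of 0.05 in limma. Abcc4, an exporter of prostaglandins, had the highest mean signal and a log2 fold change of -0.54 (SE 0.27, limma adjusted p = 0.821), which was -0.26 without double knockout tumor 2. The receptors of other prostanoids, with Ptgfrn counted among them, numbered 6 and were all measured, with 3 higher and 3 lower. Ptgfrn, a membrane protein that lowers binding to the prostaglandin F receptor, had the highest mean signal and a log2 fold change of -0.17 (SE 0.12), which was -0.085 without double knockout tumor 2.

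The leukotriene and lipoxygenase branch uses the same fatty acid. Of its 18 genes 16 were measured and 15 passed the filter, and 6 were higher and 10 lower in double knockout tumors, none with an unadjusted p under 0.05 in limma. Lta4h, which makes leukotriene B and had the highest mean signal, was at 10.13, 10.54 and 10.06 in double knockout tumors 1, 2 and 3, against 9.95, 10.01 and 9.88 in Apc knockout tumors 1, 2 and 3 (log2 fold change 0.30, SE 0.15, and 0.15 without double knockout tumor 2). Dpep2, a dipeptidase that trims cysteinyl leukotrienes, was read from 1 of its 2 probe sets and did not overlap between the groups in the other direction. Its log2 fold change was -0.56 (SE 0.26), and -0.29 without double knockout tumor 3. Lta4h and Dpep2 were the 2 of the 15 genes past the filter without overlap, beside 12.2% of all sets. All adjusted p-values of these named genes were above 0.80 in limma.

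**Figure D5:**
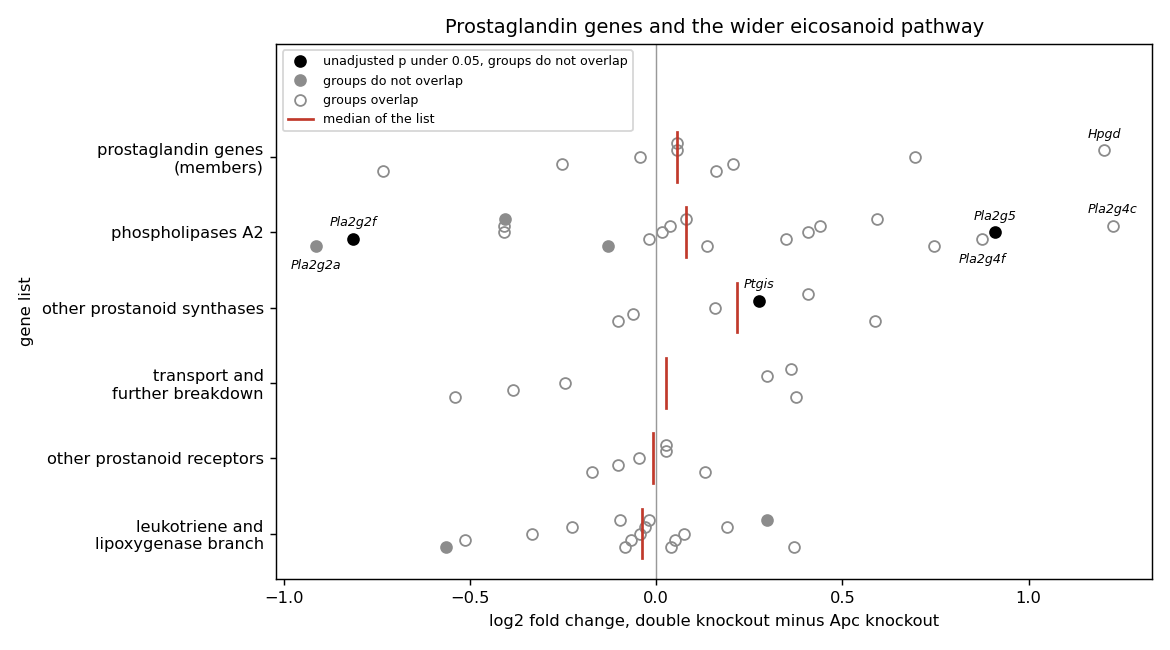
Log2 fold change, double knockout minus Apc knockout (horizontal axis), of the 9 measured prostaglandin genes and of 5 lists of related genes (down the page), where circles are genes, filled where the groups do not overlap and black where the unadjusted limma p is also under 0.05, and red lines are list medians. The 5 phospholipases A2 without overlap lie on both sides of 0, from Pla2g2a at -0.91 to Pla2g5 at 0.91.

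Single tumors stood out in the wider pathway too. The genes named in this paragraph were chosen after their values were seen. Each lay at least 1 log2 unit from the mean of the other 5 tumors. Apc knockout tumor 2, where Ptgs2 was highest, had 0 of the 53 measured pathway genes that far above or below the others. Of all tested sets, 0.769% were that far above in it and 0.943% that far below. Double knockout tumor 3 had 2 pathway genes that far below (1.20% of all tested sets), and Apc knockout tumor 3 had 1 (1.39%). In double knockout tumor 2, 7 of the 53 measured pathway genes (13.2%) were at least that much above the others, beside 4.82% of all tested sets, and 2 (Pla2g2a and Pla2g12a) were that much below, beside 4.78% of all tested sets. The genes above the others included Pla2g4a, the cytosolic phospholipase that supplies cyclooxygenases, at 10.82 with the other tumors between 8.77 and 9.71. Its relative Pla2g4f was at 9.03, with the others between 6.13 and 6.54, and the prostaglandin uptake carrier Slco2a1 was at 10.77, with the others between 9.36 and 10.19.

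In double knockout tumor 1, 2 of the 53 pathway genes (3.77%) were at least 1 log2 unit above the others, beside 0.666% of all tested sets. Pla2g4c, a calcium-independent cytosolic phospholipase, was at 9.82 with the other tumors between 6.34 and 7.03. This is 9.38-fold above their mean, and the log2 fold change of Pla2g4c between groups was 1.23 (SE 0.86) with all tumors, 0.19 with double knockout tumor 1 left out and 1.91 with double knockout tumor 2 left out. Pla2g12b, of the secreted phospholipase family, was at 8.83 with the others between 7.29 and 7.93. The mean of mast cell markers was highest in the same tumor: over 11 of 11 it was 8.90, 6.30 and 7.12 in double knockout tumors 1, 2 and 3, against 6.89, 6.95 and 6.51 in Apc knockout tumors 1, 2 and 3. Hdc was highest in Apc knockout tumor 1 (11.18), Cma1 in double knockout tumor 2 (6.28) and Tpsab1 in Apc knockout tumor 3 (5.98). The other markers were highest in double knockout tumor 1, as were 7.66% of all tested sets. Of the 11, 9 passed the filter (Fcer1a and Ms4a2 did not). Hpgds, the prostaglandin D synthase of mast cells and other blood-derived cells, was also highest in double knockout tumor 1, at 9.15, with the other tumors between 7.77 and 8.67. The part of mast cells in either signal was not tested. Tuft cells, epithelial cells that express prostaglandin enzymes, were read in the same way: the mean of 10 of 10 markers was 6.85 to 7.03 in double knockout tumors, against 7.10 to 7.16 in Apc knockout tumors. This gap rested on Avil (log2 fold change -1.43): without it the mean of the other 9 was 6.70 to 6.82 in double knockout tumors, against 6.75 to 6.85 in Apc knockout tumors. The median log2 fold change of the 10 markers was -0.02, with 4 higher and 6 lower.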

How the data were processed

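RNA from 3 double knockout and 3 Apc knockout tumors was measured on 1 array per tumor. Per the study's methods and the notes in the labels, the authors ran RMA with the GeneSpring GX software. The deposited values are log2 signals per probe set, background-corrected, quantile-normalized across arrays and summarized per set. RMA makes the arrays' distributions alike, so a change shared by most genes cannot be seen, and it compresses low signals. The annotation build was not given in the sources used here. Sets were named from the platform annotation (21789 with 1 symbol, 1621 with several, 12146 with none), and sets with several symbols named no gene. Other columns of per-tumor values numbered 0.

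Sets with a symbol whose mean reached the 20th percentile (5.88) were tested, 19506 in all, with limma 3.58.1 in R 4.3.3 (lmFit and eBayes, two-sided, no covariates, Benjamini-Hochberg adjustment over all sets, threshold 0.05). The filter on level stood in for a 20% cut-off against poorly reproducible entities whose measure the methods do not give. Exact permutation tests stood beside single genes. The fit was tested on simulated data. Precision is limited by having 3 arrays per group. The prostaglandin genes, pathway lists, marker lists and tests were chosen with earlier results of these data known. Named genes were all prostaglandin genes, pathway genes with an unadjusted p under 0.05 or groups without overlap, the gene with the highest mean signal in each list, and the 3 sets most like Hpgd and Ptgs2. Genes named for single tumors were chosen after their values were seen. Alternatives were no filter, a 40th percentile filter (7.15), the methods' t-test, median centring, further quantile normalization, trend with robust eBayes, the replicate number as a block, sex as a covariate, each tumor left out, and the mean of all sets of a gene. Promoter sequences and gene positions came from RefSeq tables of GRCm38.p6, in which all 9 measured genes matched by symbol and gene identifier.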

Additional observations from a re-analysis of the deposited data

How the results depend on the processing

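No probe set had an adjusted p under 0.05 under any alternative run, among which the lowest adjusted p was 0.104. Over 133 alternatives for the 9 genes, the direction held in 123 and reversed in 10, all of these in receptor genes, and the lowest adjusted p was 0.564. The changes of filter, the methods' t-test, trend with robust eBayes and the replicate block leave the log2 fold change as it was. So does the mean of all sets for a gene with 1 set. The direction could not turn in those alternatives, so the 123 overstates how firmly it held. The log2 fold change of Ptger1 became -0.016 with sex as a covariate and lay between -0.059 (without double knockout tumor 2) and 0.172 with single tumors left out. That of Ptger2 became -0.077 with sex as a covariate and lay between -0.029 and 0.210 with single tumors left out, below 0 without double knockout tumor 1, double knockout tumor 2 (-0.016) or Apc knockout tumor 2 (-0.025). That of Ptger3 lay between -0.093 (without double knockout tumor 2) and 1.14. That of Ptger4 lay between -0.188 and 0.068 (without double knockout tumor 3), and was 0.030 when Apc knockout tumor 1 was left out and 0.025 when it was Apc knockout tumor 2. The cause was not tested. Of the 9 genes, 0 to 2 had an unadjusted limma p under 0.05 with single tumors left out, the 2 (Hpgd and Ptges) without double knockout tumor 3. Over all sets this count was 1092, and 677 without Apc knockout tumor 1 to 1716 without double knockout tumor 3. The methods' t-test gave 998 sets at an unadjusted p under 0.05, 0 of the 9 genes and a smallest adjusted p of 0.769.

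The labels number the tumors alike in both groups. For same-numbered tumors, the correlations of their deviations from the group means were -0.20, -0.06 and 0.09. In groups this small the deviations within a group are tied together by its mean. These values therefore cannot settle whether same-numbered tumors shared more than a number. With the replicate block, 1350 sets had an unadjusted p under 0.05, 0 an adjusted one, and the log2 fold changes of the 9 genes were as without it (Ptgs2 -0.73, adjusted p = 0.804). The 40th percentile filter removed Ptger2 and Ptger3 and gave no value for them.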
